A study of Mus musculus with 12 samples.

Results

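The genes examined encode 10 inducible transcriptional regulators: the zinc finger factors Egr1, Egr2, Egr3 and Egr4, the orphan nuclear receptors Nr4a1, Nr4a2 and Nr4a3, the basic helix-loop-helix factor Npas4, the zinc finger factor Klf4 and the cAMP-responsive regulator Crem. They were taken by symbol from the RefSeq gene table of mm10 (GRCm38.p6), where all 10 were found among 21523 protein-coding genes. A c-Fos peak was assigned to a gene when its midpoint lay inside the gene or within 100 kb of it, and genes without a peak were counted as well. By this rule 4 of the 10 genes had a peak, with 5 peaks in all out of 3294.

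The peaks came from CUT&RUN, in which an antibody tethers a nuclease that cuts out the DNA around the bound protein for sequencing. Nuclei of excitatory neurons from the CA1 field of the mouse hippocampus carried the nuclear envelope tag Sun1-GFP and were sorted on it, and 50000 nuclei went into each reaction. The mice were C57BL/6, aged 3 to 4 weeks, with the genotype CaMK2a-Cre/+; LSL-Sun1-GFP/+ in every group, so that the CaMK2a promoter driving Cre decided which cells were tagged. The 4 groups of 3 replicates were c-Fos antibody after kainic acid, IgG after kainic acid, c-Fos antibody after PBS and IgG after PBS. Kainic acid, which activates ionotropic glutamate receptors and sets off seizures, or PBS had been given 2 to 3 h before by the sample labels and 2 h before by the description of the series. The number of animals behind each replicate is unknown here.

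The regulators studied are immediate early or early response genes. In neurons, calcium entry and cAMP activate kinases that act on CREB, bound at cAMP response elements (CREs), and on SRF with its cofactors, bound at serum response elements, and these switch the genes on without new protein synthesis. The c-Fos protein itself is made in the same early phase and binds DNA as a dimer with Jun proteins, mainly at AP-1 sites in enhancers, so that its sites near an early gene lie beside a gene that is induced alongside Fos.

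The deposited list gave the chromosome, start and end of each of 3295 peaks described as replicated, of which 1 lay outside the assembled chromosomes. It held no score, signal or value per library. Read depth is therefore unknown, no spread between replicates can be given, and all values below describe positions within 1 list. No test was run over the 10 genes, and the binding after PBS was not analysed here. The list holds no expression values, so the sorted cell type could not be checked by its transcripts. As positions only, 2 of 5 excitatory neuron markers, 4 of 5 interneuron markers and 2 of 6 glial markers had a peak within 100 kb. The share of all protein-coding genes was 21.8%. Within 10 kb the counts were 1 of 5, 4 of 5 and 1 of 6, against 7.55% of protein-coding genes. The part of other cells in the results was not tested.

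The regulator genes differed widely in how near a c-Fos peak lay. Peaks were assigned to Klf4, Nr4a2, Egr2 and Crem (4 of 10, 40.0%), while 21.8% of all protein-coding genes had one by the same rule. The other 6, Egr1, Egr3, Egr4, Nr4a1, Nr4a3 and Npas4, had none. The background was 20.0% among the 15258 protein-coding genes no shorter and no longer than the regulators, which ran from 2.47 kb (Egr4) to 71.4 kb (Crem). In order of distance, the nearest peak lay at 0.691 kb for Klf4, 14.9 kb for Nr4a2, 47.0 kb for Egr2, 97.8 kb for Crem, 249 kb for Egr3, 350 kb for Egr1, 477 kb for Nr4a1, 639 kb for Nr4a3, 820 kb for Npas4 and 2350 kb for Egr4. Crem was the last gene inside the limit and Egr3 the first outside it. No peak midpoint lay inside any of the 10 genes, against 5.52% of protein-coding genes with one inside.

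**Figure D1:**
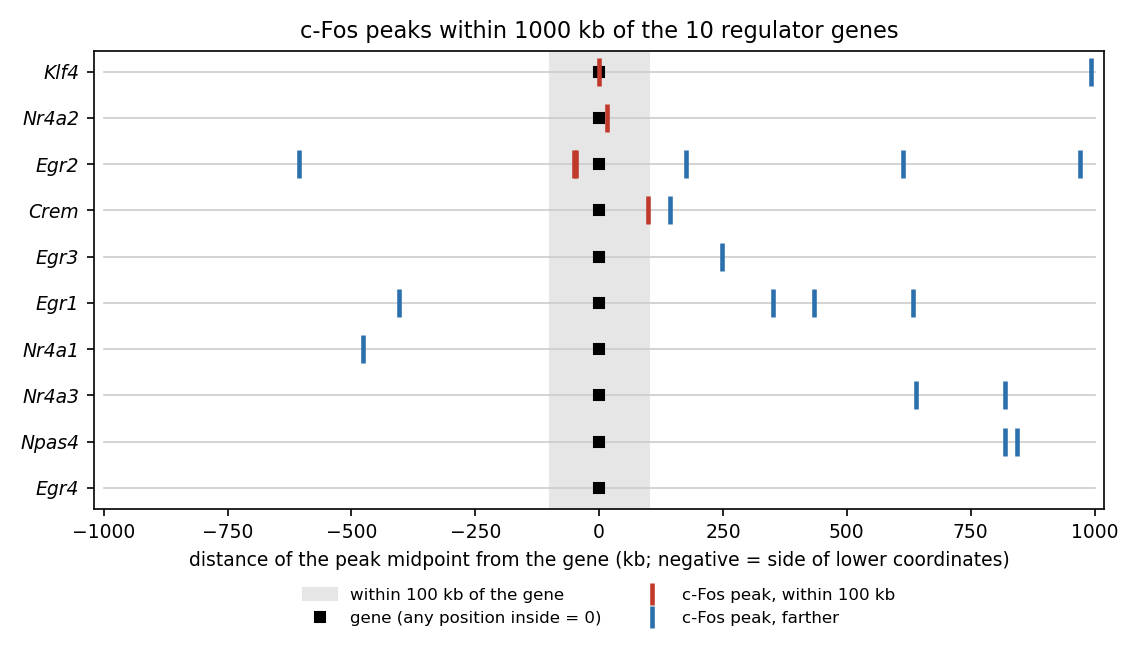
Position of each c-Fos peak midpoint relative to the 10 regulator genes, in kb from the gene, with the genes ordered by their nearest peak and the grey band marking 100 kb. The 5 peaks in the band belong to Klf4, Nr4a2, Egr2 (a pair drawn close together) and Crem, and Egr4 has no peak within 1000 kb.

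Klf4, a zinc finger factor of the Krüppel-like family that binds GC-rich DNA, was the only regulator with a peak at its promoter. The gene lies on chromosome 4 from 55527137 to 55532475 on the minus strand. Its peak ran from 55532499 to 55533832 and was 1334 bp wide. Its far edge lay 1357 bp upstream of the start site, its midpoint 690.5 bp upstream and its near edge 24 bp upstream, so it did not reach the start site itself. It was also the only regulator with a peak within 10 kb (1 of 10), a distance at which 7.55% of protein-coding genes had 1 or more. A midpoint outside the gene but within 1 kb of it was found for 0.595% of them. With peaks inside genes counted as well, 6.03% of protein-coding genes had a peak as near as Klf4. Of the RefSeq promoter window, which covers 250 bases before and 50 bases after the start, 227 of 300 bases (75.7%) lay under the peak, and 1.09% of the 26794 genes with a window had any base of one under a peak. No other protein-coding gene lay within 100 kb of Klf4, and the next peak was 992 kb away.

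The 250 bases before the Klf4 start are shown because they are the only regulator promoter under a peak (RefSeq, GRCm38.p6, chr4:55532476-55532725, minus strand, 5′ to 3′). The first 227 bases are inside the peak. Capitals mark matches to the core of the CRE, TGACG or its complement CGTCA, and to the Egr site GCGGGGGCG, which reads CGCCCCCGC on this strand.
Klf4: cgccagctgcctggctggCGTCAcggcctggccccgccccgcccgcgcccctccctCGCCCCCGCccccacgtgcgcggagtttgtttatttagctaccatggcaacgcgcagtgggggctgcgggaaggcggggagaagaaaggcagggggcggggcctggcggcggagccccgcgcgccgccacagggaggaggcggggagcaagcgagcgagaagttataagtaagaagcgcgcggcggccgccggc
Positions are counted from the start site, with bases before it negative. The core match stood at -232 to -228 and the Egr match at -194 to -186. Both were inside the peak. The AP-1 site TGACTCA, the consensus of Fos and Jun dimers, was not among the letters of this window on either strand. The window holds only 227 bases of the 1334 bp peak. The rest of the peak, with its midpoint, was not searched, so whether the peak holds an AP-1 site is unknown here.

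The Nr4a genes encode nuclear receptors without a known natural ligand that act as constitutively active transcription factors. Nr4a2, also called Nurr1, had 1 peak, on chromosome 2 from 57138321 to 57139530 and 1210 bp wide, 14.9 kb upstream of its start. The predicted gene LOC105244150 was slightly nearer to this peak, at 14.2 kb. Nr4a1, also called Nur77, on chromosome 15 from 101253902 to 101274795, had its nearest peak 477 kb away on the upstream side. That peak, 2583 bp wide and wider than or as wide as 94.8% of all peaks, lay inside Slc4a8. Nr4a3, on chromosome 4 from 48045078 to 48086447, had its nearest peak 639 kb away on the downstream side. It was 899 bp wide, and the next one was 819 kb away. The 3 receptors, which bind the same response element, thus had nearest peaks from 14.9 to 639 kb away.

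The promoters of the Nr4a genes are shown to compare their CRE cores, since a peak lay near 1 of them and none lay on any (RefSeq, GRCm38.p6, 5′ to 3′ on the strand of the gene). Nr4a2 is given for 250 bases before the start (chr2:57124004-57124253, minus strand), and Nr4a1 (chr15:101266771-101266800, plus strand) and Nr4a3 (chr4:48045080-48045109, plus strand) for the 30 bases that hold most matched letters. Capitals mark whole matches to TGACG or CGTCA and, in Nr4a1, to the Egr site.
Nr4a2: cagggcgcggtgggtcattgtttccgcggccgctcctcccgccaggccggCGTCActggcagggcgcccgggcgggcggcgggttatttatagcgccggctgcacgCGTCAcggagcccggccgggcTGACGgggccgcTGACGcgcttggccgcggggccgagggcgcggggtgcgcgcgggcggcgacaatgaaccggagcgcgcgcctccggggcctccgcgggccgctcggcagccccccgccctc
Nr4a1: cgtgtgCGTCAgtggCGCCCCCGCccctct
Nr4a3: agcgtcccatgtCGTCAcatTGACGtctcg
Nr4a2, Nr4a1 and Nr4a3 each had 4 core matches in their window. The nearest to the start were at -111 to -107 in Nr4a2, -40 to -36 in Nr4a1 and -147 to -143 in Nr4a3. The Egr match of Nr4a1 was at -60 to -52. Positions in Nr4a1 count from a start at 101266846, which lies inside the gene range that begins at 101253902. The response element of the Nr4a proteins themselves, AAAGGTCA, had no match in any of these windows.

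Npas4, a neuron-enriched factor that is induced by calcium influx and regulates inhibitory synapses, had no peak within 100 kb. The gene lies on chromosome 19 from 4984353 to 5003439 in a gene-rich stretch, with 14 other protein-coding genes within 100 kb, and its nearest peaks lay 820 and 843 kb away. These were 2274 and 2056 bp wide, and Frmd8 was their nearest protein-coding gene. A distance of 820 kb or less was found for 75.3% of protein-coding genes, so Npas4 was farther from a peak than most. Its RefSeq promoter window has its start at 4989971, inside the gene range, and no window was given at the upstream end of that range. This window held a pair of CRE cores on opposite strands, at -179 to -175 and -169 to -165. They are shown in capitals in the 30 bases at chr19:4990128-4990157 (minus strand, RefSeq, GRCm38.p6).
Npas4: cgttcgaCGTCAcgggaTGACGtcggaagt

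Of the Egr genes, which encode factors that bind GC-rich sites through 3 zinc fingers, Egr2 had a pair of peaks within 100 kb. Egr2, known for its role in myelination and hindbrain patterning and induced by activity in neurons, lies on chromosome 10 from 67534469 to 67542188 on the plus strand. Its peaks ran from 67486674 to 67488217 (1544 bp wide) and from 67482221 to 67484191 (1971 bp wide), 47.0 and 51.3 kb upstream of the gene. They were separated by 2.48 kb between edges and 4.24 kb between midpoints, and 5.62% of all peaks had a neighbour as near as that. No protein-coding gene was nearer to either of them than Egr2. At least 2 peaks within 100 kb were found for 5.59% of protein-coding genes. Egr2 also had the next peaks at 176 kb downstream and at 606, 614 and 971 kb, and its 6 peaks within 1000 kb were the most of any regulator.

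Egr4, on chromosome 6 from 85511121 to 85513589, stood at the other end, with its nearest peak 2350 kb away. Peaks at that distance or nearer were found for 95.0% of protein-coding genes. Promoter letters of Egr2 and Egr4 are shown as the extremes of the family, the first with a pair of distal peaks and the second with none for more than 1000 kb on both sides (RefSeq, GRCm38.p6, 5′ to 3′). Egr4 is given for 250 bases before the start (chr6:85513590-85513839, minus strand) and Egr2 for the 30 bases with most matched letters before its start at 67537869 (chr10:67537793-67537822, plus strand). Capitals mark CRE cores and, in Egr2, the serum response element, the site of SRF.
Egr2: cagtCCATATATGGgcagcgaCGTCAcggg
Egr4: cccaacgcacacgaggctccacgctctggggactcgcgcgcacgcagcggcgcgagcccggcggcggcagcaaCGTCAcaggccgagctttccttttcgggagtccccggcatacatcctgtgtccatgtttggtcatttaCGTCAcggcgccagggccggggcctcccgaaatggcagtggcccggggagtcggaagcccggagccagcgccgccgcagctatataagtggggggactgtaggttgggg
Egr2 had its serum response element at -72 to -63 and a core match at -55 to -51 relative to that start. RefSeq lists 5 start windows for Egr2, and 3 of them, which overlap each other, held these same matches. A further window, with its start at 67537566, held another serum response element, also at -72 to -63. Egr4 had core matches at -177 to -173 and -109 to -105.

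Across the family of promoters, all 7 regulators with a RefSeq window had a CRE core in at least 1 window. None had an AP-1 site, which only 5.98% of all genes with a window had. These 7 were Egr2, Egr4, Nr4a1, Nr4a2, Nr4a3, Npas4 and Klf4, while Egr1, Egr3 and Crem had no window and were not searched. Motifs were searched on both strands, as exact letters except for the serum response element, whose consensus allows A or T at each inner position between its outer CC and GG. A full CRE contains the core, whereas AP-1 and the core do not contain each other. Over the 32619 windows of all genes, 20.9% held TGACG, and 23.2% of 26794 genes had it in a window. The regulator windows were rich in G and C (56.0% to 81.7%), and TGACG contains a CpG pair. Counting only windows with at least 21 CpG pairs, the fewest in the richest window of any of the 7 genes, 6 of the 7 regulators held TGACG, against 38.2% of the 7297 genes with such a window and 36.7% of these windows. Egr2 was the exception, since its windows with a core had 16 to 19 CpG pairs. The full CRE TGACGTCA had no exact match in the 7 genes and was present in 1.80% of all windows and 2.05% of all genes. TGACTCA was present in 5.22% of all windows and 2.01% of the CpG-rich ones. Of the 338 windows that a peak overlapped, 52 (15.4%) held TGACTCA and 143 (42.3%) held TGACG, and the Klf4 window, 1 of the 338, held TGACG but not TGACTCA. The Egr sites GCGGGGGCG and GCGTGGGCG were searched together. They matched in Klf4 and Nr4a1 and in 3.49% of all windows, or 11.1% of the CpG-rich ones. Counted by gene, these shares were 3.97% and 11.6%. AAAGGTCA matched in none of the 7 genes, against 1.72% of all genes and 1.52% of all windows. The serum response element matched in Egr2 alone of the 7 genes searched, against 1.82% of all genes and 1.64% of all windows. These matches describe letters and are not binding sites shown by the data.

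**Figure D2:**
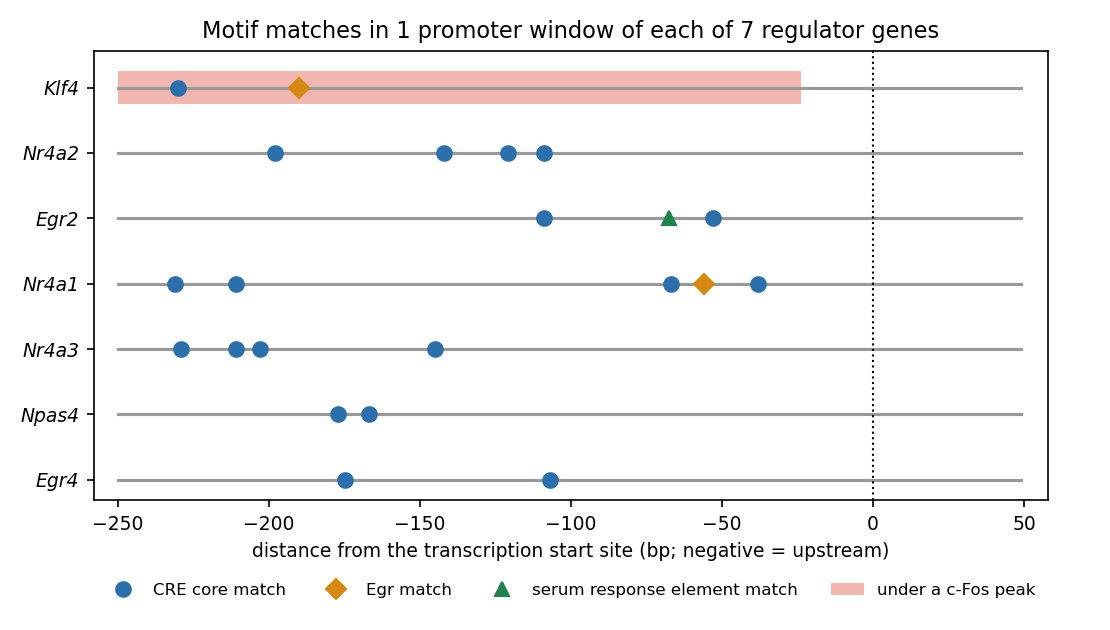
Motif matches from 250 bp before to 50 bp after the start site in 1 promoter window of each of 7 regulator genes, drawn at the centre of each match. CRE cores (circles) occur in all 7 windows drawn, and only the Klf4 window is under a c-Fos peak (band, 227 of 300 bases). For Egr2 the window drawn was chosen among those with a core. Its windows with starts at 67535499 and 67537566 held none.

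All 4 assigned peaks of genes with a known strand lay upstream. These were the peaks of Klf4 and Nr4a2 and the pair at Egr2, and the strand of Crem was not given in the table used here. Over all protein-coding genes with a strand and a nearest peak outside the gene within 100 kb, 51.3% of 2789 had that peak upstream. Since the pair at Egr2 shares a gene, 3 genes stand behind the count.

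The assigned peaks were of ordinary width. They measured 1210 bp (Nr4a2), 1334 bp (Klf4), 1475 bp (Crem), 1544 bp and 1971 bp (both Egr2), with a median of 1475 bp against 1341.5 bp over all peaks (quartiles 1097 and 1698.75 bp). Only the farther Egr2 peak was above the upper quartile, being wider than or as wide as 84.9% of all peaks. Width is not a measure of binding strength, which the list does not give.

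**Figure D3:**
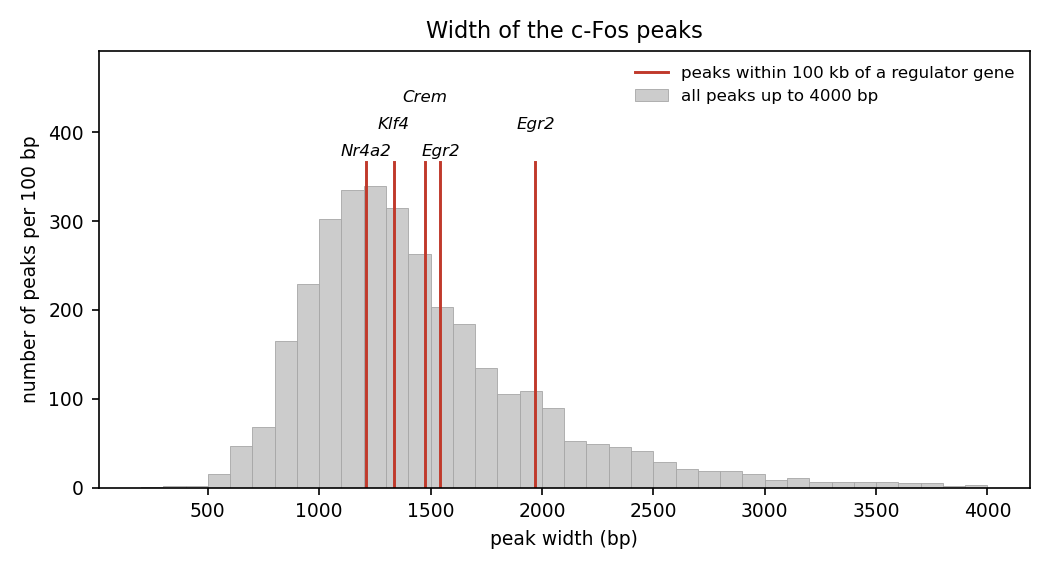
Widths of the 5 peaks assigned to regulator genes (red lines, bp) over the histogram of all peaks in bins of 100 bp, leaving out 30 peaks wider than 4000 bp. The lines run from 1210 to 1971 bp, and 4 of the 5 fall between the quartiles of all peaks.

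Egr1 and Egr3, factors that bind the same GC-rich site as Egr2 and are induced by synaptic activity, had no peak within 100 kb. Egr1, on chromosome 18 from 34861207 to 34864956, had 4 peaks within 1000 kb, at 350, 435 and 634 kb on the side of higher coordinates and 403 kb on the other. The nearest, 1129 bp wide, lay inside Ctnna1. Its distance was close to the median, since 49.2% of protein-coding genes had a peak as near. Egr3, on chromosome 14 from 70077317 to 70082613, had 1 peak within 1000 kb, at 249 kb and 1519 bp wide, inside Slc39a14. That distance or less was found for 39.5% of protein-coding genes.

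Crem, which encodes activators of the CREB family and, from an internal promoter, the inducible repressor ICER, lies on chromosome 18 from 3266354 to 3337773. Its assigned peak, from 3434802 to 3436276 and 1475 bp wide, was 97.8 kb away on the side of higher coordinates and inside another gene, Cul2, a scaffold of ubiquitin ligases. A second peak of 1443 bp lay 143 kb away, nearer to Bambi (25.9 kb). Counted to the nearest protein-coding gene alone, neither belonged to Crem.

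At larger distances the values of the regulators lay near those of protein-coding genes as a whole. A peak within 500 kb was present for 7 of the 10, against 60.0% of protein-coding genes. The median distance to the nearest peak was 299 kb for the regulators and 360 kb for all protein-coding genes (quartiles 124 and 813 kb). Within 1000 kb, the regulators had 0 to 6 peaks with a median of 2, and the median over protein-coding genes was also 2 (quartiles 1 and 3). Egr4 was the only regulator beyond 1000 kb, as were 19.3% of protein-coding genes. Gene density around them ranged from 0 other protein-coding genes within 100 kb for Klf4, and 1 each for Egr2, Crem and Nr4a3, to 14 for Npas4. Nr4a2 had 2, Egr1 and Nr4a1 had 5 and Egr3 and Egr4 had 6. The 4 genes with an assigned peak had 0 to 2 neighbours and the 6 without had 1 to 14. The ranges overlapped through Nr4a3 alone, and the remaining genes without a peak had 5 to 14. A link between gene density and peaks was not tested.

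**Figure D4:**
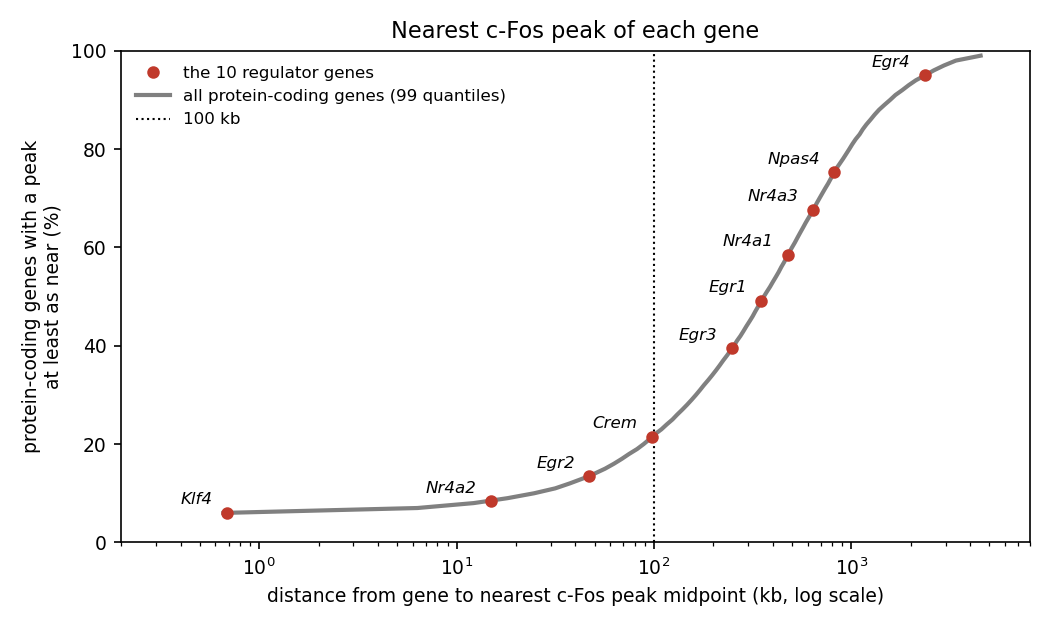
Distance from each of the 10 regulator genes to its nearest c-Fos peak midpoint (kb, log scale) against the percent of protein-coding genes with a peak at least as near, over the curve of all protein-coding genes. The points run from 0.691 kb at Klf4 (6.03%) to 2350 kb at Egr4 (95.0%), with 4 points left of the 100 kb line.

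The partners and relatives of these regulators were looked up in the same way, in 7 lists of 53 genes, of which 20 (37.7%) had a peak within 100 kb. Of the Egr corepressors, Nab1 had a peak inside the gene and Nab2 had its nearest at 725 kb. None of the 3 retinoid X receptors that pair with Nr4a1 and Nr4a2 had one, the nearest being 183 kb from Rxrg. Among the partners and relatives of Npas4, 1 of 5 had a peak, inside Npas3, and the dimer partners Arnt and Arnt2 had theirs at 128 and 202 kb. In the CREB family and its coactivators 3 of 7 had one, inside Atf1 and at 77.2 kb from Crebbp and 77.8 kb from Crtc3, while Creb1 had its nearest at 108 kb. For SRF and its cofactors the count was 2 of 6, inside Mrtfb and at 18.1 kb from Elk1, with Srf at 309 kb. Of the other Klf genes 5 of 16 had a peak, and Klf6, Klf10 and Klf12 had one inside. Of 14 other inducible transcription factor genes 8 had one. Peaks lay inside Maff and Csrnp1, 0.707 kb from Fosl2 and 9.58 kb from Fos. The lists were not tested against each other or against the background of 21.8%.

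**Figure D5:**
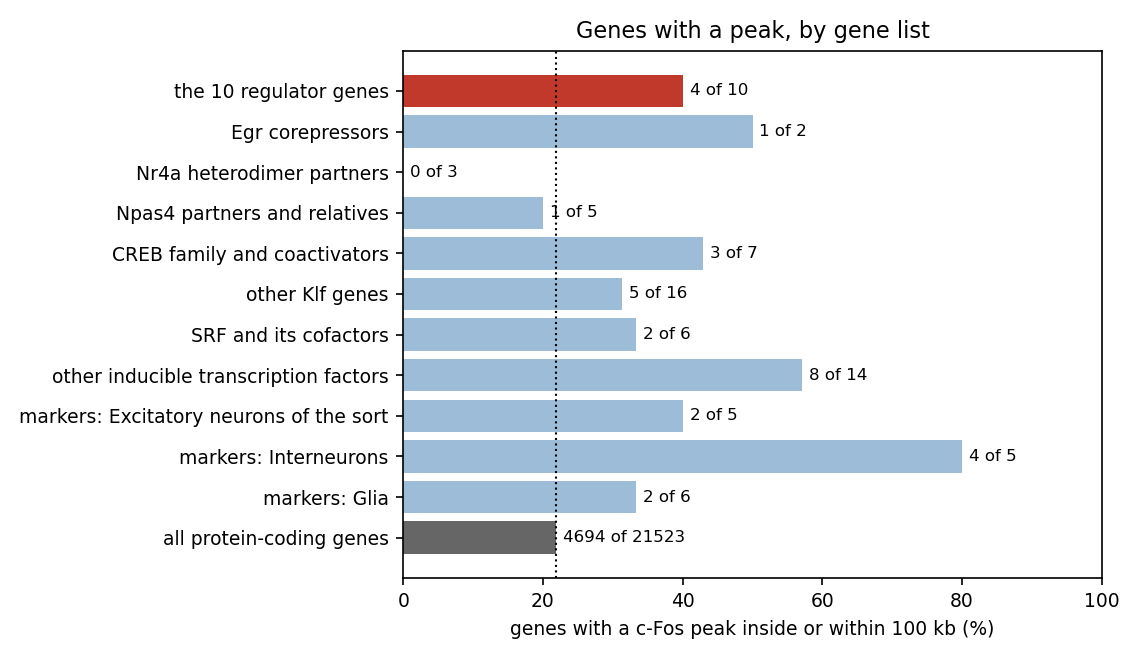
Percent of genes with a c-Fos peak inside or within 100 kb for the 10 regulator genes, 7 lists of partners and relatives, 3 lists of cell type markers and all protein-coding genes, with counts beside the bars and the dotted line at the share of all protein-coding genes (21.8%). The regulators stand at 4 of 10 and the other inducible transcription factors at 8 of 14.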

How the data were processed

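CUT&RUN libraries numbered 12, in 4 groups of 3 by the sample titles. The builds mm10 and sacCer3 and the tools SEACR 1.1, bedtools 2.27.1, Bowtie2 2.2.9 and Trimmomatic 0.36 are named in the submitters' processing notes. Neither their order and settings nor the way of combining replicates was stated in the sources used here. The list as deposited, of 3 columns without scores, is attached to 1 kainic acid sample and was taken as the list of its group. Starts were made 1-based.

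Genes came from the RefSeq table of GRCm38.p6, the assembly of mm10, leaving out 340 genes that start below 3000000, which appear to lie on unplaced scaffolds. The table gives no exons or UTRs. Strand, start sites and sequences came from the RefSeq promoter windows, present for 7 of the 10 genes. No sequence was available outside these windows, so the parts of peaks beyond them were not searched for motifs. Distances ran from the peak midpoint to the nearest base of the gene. The code (Python 3.11.15, pandas 2.3.3, numpy 2.4.6) was tested on simulated peaks. The 10 genes and the lists were chosen with earlier results of these data known. From each list the genes with the nearest peaks are named, up to 3, and a few more (Arnt2, Creb1, Srf, Fos, Fosl1, Junb and Klf1) were named after their values were seen.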

Additional observations from a re-analysis of the deposited data

How the results depend on the processing

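Of the 10 regulators, 4 had a peak within 100 kb when any base of a peak counted, when only gene ends counted and with peaks within 500 bp merged. Within 200 kb the count was also 4, against 34.4% of protein-coding genes. Neither a wider window nor counting any base can lose a peak, so neither could lower the count of 4. Within 50 kb 3 regulators had a peak, against 3017 of 21523 protein-coding genes. Within 10 kb only Klf4 had a peak (1 gene, 1 peak), against 7.55% of protein-coding genes. Within 500 kb 7 regulators did, with 12 peaks, against 60.0%. With each peak given to its nearest protein-coding gene, 2 remained, Egr2 and Klf4, with 3 peaks, and Nr4a2 and Crem dropped out because LOC105244150 and Cul2 were nearer. Among the 1647 wider peaks 2 had one, Egr2 and Crem, with 3 peaks; the peaks of Klf4 and Nr4a2 are below the median width. Within 50 kb the regulators had 3 peaks. By construction of the window, protein-coding genes with a peak numbered 1626 at 10 kb, 3017 at 50 kb, 7397 at 200 kb and 12912 at 500 kb, against 4694 at 100 kb. The count was 1857 (8.63%) for the nearest gene only and 2718 (12.6%) with the wider peaks. Nearest peaks of all 10 genes were the same after merging, and of 5 genes among the wider peaks.

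No paired analysis was possible because positions were deposited once for the group, without values by replicate. No replicate was left out, for the same reason. Peaks below the unknown calling threshold are missing from every count, and depth is unknown.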

Other observations

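Some peaks were shared between genes looked up, as the nearest peak at any distance or as the only one within 100 kb. The peak nearest to Npas4, on chromosome 19 from 5821911 to 5824184, was also the nearest to Fosl1, a Fos family gene, at 367 kb. The peak 7.08 kb from Junb (chromosome 8, 84984720 to 84986927) was also the only peak within 100 kb of Klf1, at 80.5 kb. These genes were singled out after their values were seen.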
